A study of Mus musculus with 6 samples.

Results

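Nicotinamide methylation and NAD synthesis were followed through 10 genes: Nnmt, Nampt, Nmnat1, Nmnat3, Tdo2, Kmo, Haao, Acmsd, Qprt and Nadsyn1. The genes were chosen by name, and every probe set that the platform annotation assigned to a single gene symbol among them was taken. This gave 16 probe sets for 9 of the 10 genes, out of 45037 probe sets in all, and Acmsd was not analysed here. The probe set with the highest mean signal over the 6 arrays stood for each gene, and all 9 passed the filter on dim signals into the test of 12705 genes. The group was put together around Nnmt with its difference between the mice already known, so the values of Nnmt are a description.

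Liver RNA of 6 single mice was measured, with 1 Affymetrix mouse genome array for each. Of these, 3 were Retnla transgenic (labelled Retnla-Tg 5, 6 and 7, here Tg 5, 6 and 7) and 3 were non-transgenic (Retnla-non-Tg 1, 2 and 3, here non-Tg 1, 2 and 3). All 6 were males on the C57BL6/J background, aged 3 months, and all had been moved at 8 weeks of age to a diet with 21% fat and 0.15% cholesterol, which they ate for 4 weeks. The transgene encodes a secreted protein of the resistin family, resistin-like molecule alpha. Its promoter and the number of founder lines are not stated in the labels used here. No mice on a standard diet took part, so each comparison is Tg against non-Tg on the rich diet.

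NAD carries electrons in metabolism and is also consumed by sirtuins and poly(ADP-ribose) polymerases, which release nicotinamide. Nicotinamide has competing fates: NAMPT turns it into nicotinamide mononucleotide, from which NMNAT enzymes rebuild NAD, whereas NNMT methylates it with S-adenosylmethionine to methylnicotinamide, which leaves the cycle. Liver can also make NAD from tryptophan, a route that begins with TDO2, passes through KMO and HAAO, and joins the NAD pathway at QPRT.

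The Retnla signal matched the labels. Its log2 signal ran from 15.91 to 16.04 in Tg livers and from 6.03 to 7.41 in non-Tg livers. The median log2 signal of an array lay between 6.49 and 6.74, and correlations between arrays ran from 0.881 to 0.891. Of 8 hepatocyte markers fixed for the check of the tissue, 8 passed the filter, with albumin (Alb) above 99.98% of probe sets. The arrays fell into sets of lower and higher signal for bioC, a bacterial transcript spiked in as a control. The lower set held non-Tg 1, Tg 5 and Tg 6, and the higher set held non-Tg 2, non-Tg 3 and Tg 7. With 1 mouse against 2 in each set, differences within a set are given as values without a test.

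Nnmt was higher in Tg livers. It was the only member whose groups did not overlap on the probe set that stands for the gene. Across all genes the groups did not overlap for 11.7%. Nnmt had 1 probe set, so no second probe set could be set beside it. The alternatives given below all read this same probe set. Nnmt encodes nicotinamide N-methyltransferase, which is abundant in liver and adipose tissue. Its log2 signal was 11.97, 12.19 and 11.65 in non-Tg 1, 2 and 3, and 12.87, 13.24 and 12.99 in Tg 5, 6 and 7. The lowest Tg mouse lay above the highest non-Tg mouse, and Tg 6 had the highest and non-Tg 3 the lowest signal. Tg livers averaged 13.03 ± 0.19 (SD, n = 3), and non-Tg livers 11.94 ± 0.27 (SD, n = 3). The log2 difference was 1.10 ± 0.15 (SE), or 2.14-fold with a 95% confidence interval of 1.69 to 2.70. Its adjusted p in the limma fit over all genes was 0.0696, which does not pass the threshold of 0.05. The exact permutation p was 0.1, and no smaller p is possible with 3 mice in each group.

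**Figure D1:**
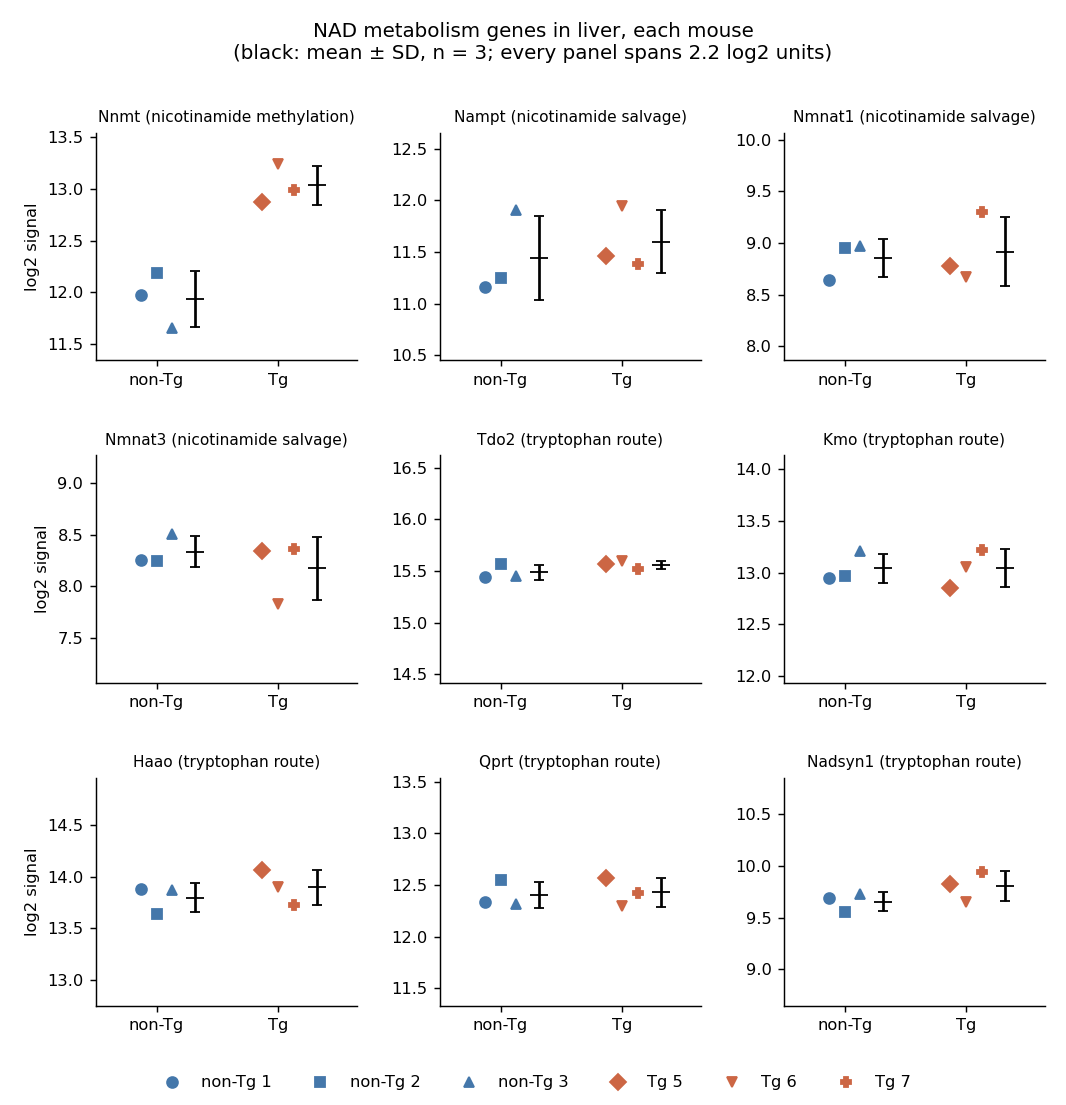
Log2 signal of the 9 measured genes in each mouse, with non-Tg mice in blue, Tg mice in orange, and the mean ± SD (n = 3) in black beside each group. Every panel spans 2.2 log2 units, so distances can be compared between panels; the Nnmt groups lie apart, and the groups overlap in the other 8 panels.

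The Nnmt difference was of similar size in both sets of arrays. It was 1.08 within the lower bioC set and 1.07 within the higher set. With the sets as a block in the limma fit it was 1.08 ± 0.16 (SE; adjusted p = 0.145). Under 19 alternatives, 6 of which left out a single mouse, it lay between 0.95 and 1.22, while its limma adjusted p ran from 0.0390 to 0.715. Changes of processing with all mice kept gave 1.02 (median centring) to 1.13 (array weights). Nnmt passed under 2 of the 19, once when a constant of 64 was added before taking the log (adjusted p = 0.0476) and once with the filter at the 20th percentile (0.0390). The largest p, 0.715, came when limma's variances were moderated with no intensity trend, with the difference itself at 1.10. Leaving out single mice moved the difference most without non-Tg 3 (0.95) and without non-Tg 2 (1.22).

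**Figure D2:**
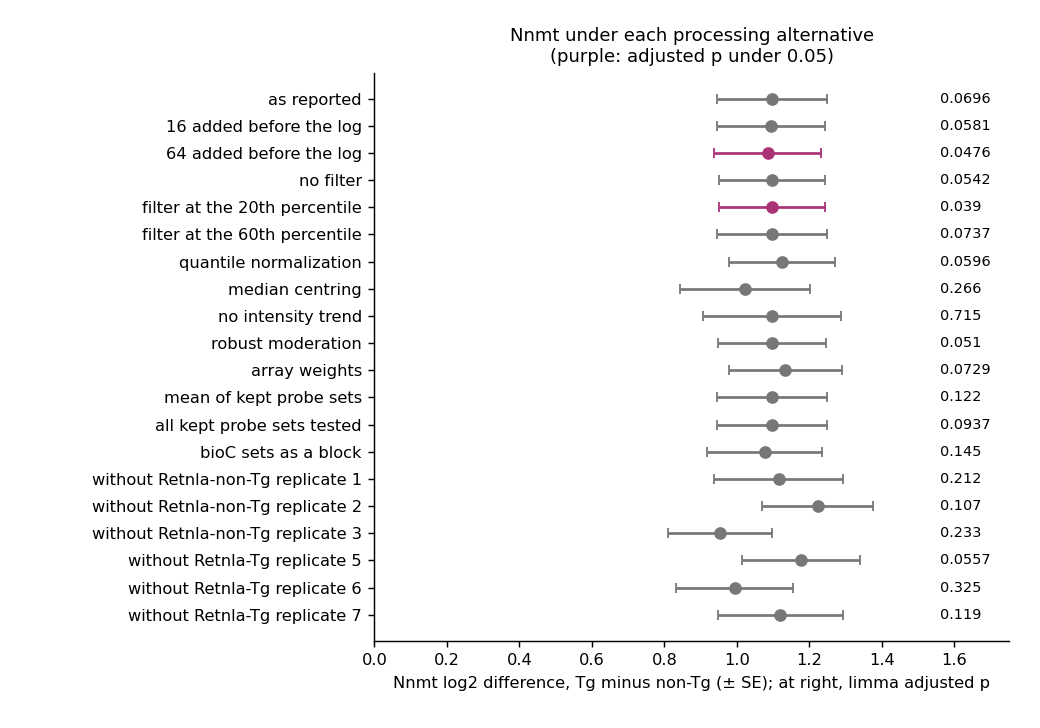
Nnmt log2 difference, Tg minus non-Tg (x axis), with its SE as bars, as reported and under 19 alternatives (y axis). Of these, 6 left out a single mouse, and the limma adjusted p is printed at the right. The differences lie between 0.95 and 1.22, and purple marks the 2 settings with an adjusted p under 0.05.

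Among all 12705 genes Nnmt ranked 6 by p and 367 by the size of its difference in either direction. Among the 1001 genes nearest to Nnmt in mean signal, itself included, it ranked 6 by size.

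Of the 9 measured members, 0 passed the limma threshold over all genes. Across the whole data set 2 genes of 12705 passed (0.0157%), both higher in Tg livers, and Retnla, the gene of the transgene, was among them. At an unadjusted p under 0.05 the limma fit counted 1 member, Nnmt, against 6.05% of all genes, 2.93% higher and 3.12% lower. The groups did not overlap for 1 member, again Nnmt, against 11.7% of all genes, 6.04% higher and 5.64% lower in Tg livers. Nothing is read from these counts, because the members were chosen with this comparison known. The other 8 members lay between -0.16 and 0.16, with a median of 0.07, where the median of all genes was 0.01. In all 8 of 9 members were higher as deposited, but 4 of 9 when each array was centred on its median, which moved the median of all genes to -0.06. The median absolute difference of the 8 members other than Nnmt was 0.09, against 0.18 over all genes. These medians were not matched for signal, because the 8 members were bright and all genes reached down to the filter. The mean signals of the 8 lay above 71.7% (Nmnat3) to 99.8% (Tdo2) of probe sets. Tdo2 was counted at 0.07, and its other probe sets gave 0.30 and 0.27.

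**Figure D3:**
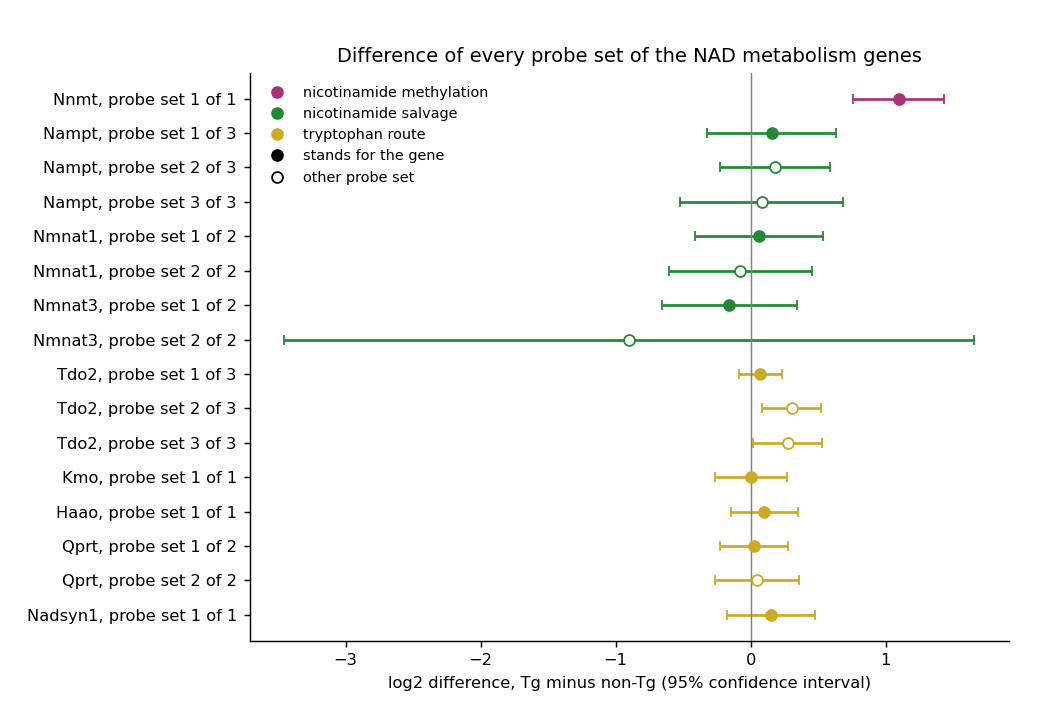
Log2 difference, Tg minus non-Tg (x axis), with its 95% confidence interval, for the 16 probe sets of the 9 measured genes (y axis), coloured by route. Filled points stand for a gene and open points are its other probe sets; the intervals of Nnmt and of both dimmer Tdo2 probe sets lie above 0, and that of the dim second Nmnat3 probe set is the widest.

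The salvage route was measured through Nampt, Nmnat1 and Nmnat3. NAMPT catalyses the rate-limiting step of salvage. The log2 signal of Nampt was 11.16, 11.25 and 11.91 in non-Tg 1, 2 and 3, and 11.47, 11.95 and 11.39 in Tg 5, 6 and 7. Non-Tg 3 and Tg 6 stood above the other mice at similar levels, so the groups overlapped. The difference was 0.16 ± 0.21 (SE; limma adjusted p = 0.900), with an interval of 0.80-fold to 1.55-fold. The same 2 mice were the highest on both other Nampt probe sets, which differed by 0.18 ± 0.18 and 0.08 ± 0.27 (SE). Nampt differed by 0.54 within the lower bioC set and by -0.19 within the higher set, opposite in sign. Without Tg 6 its difference was -0.016.

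NMNAT1 and NMNAT3 join the mononucleotide to an adenylate group, in the nucleus and, for NMNAT3, mainly in mitochondria. Nmnat1 was at 8.64, 8.95 and 8.97 in non-Tg 1, 2 and 3, and at 8.78, 8.67 and 9.30 in Tg 5, 6 and 7. Tg 7 had the highest signal, while Tg 5 and Tg 6 lay within the non-Tg range. The difference was 0.06 ± 0.21 (SE; limma adjusted p = 0.970), with an interval of 0.75-fold to 1.45-fold. The second Nmnat1 probe set gave -0.08 ± 0.24 (SE), with the opposite sign. The Nmnat1 difference also changed sign under array weights, median centring and the mean of the probe sets, and without non-Tg 1 or Tg 7.

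Nmnat3 was at 8.25, 8.25 and 8.51 in non-Tg 1, 2 and 3, and at 8.34, 7.83 and 8.36 in Tg 5, 6 and 7. Tg 6 alone lay below the non-Tg mice. The difference was -0.16 ± 0.22 (SE; limma adjusted p = 0.907), with an interval of 0.63-fold to 1.27-fold, and 0.018 without Tg 6. The other Nmnat3 probe set lay below the filter of 5.63 and had signals from 4.86 to 5.62 in non-Tg and from 1.60 to 6.21 in Tg livers, with Tg 7 the lowest. It differed by -0.90 ± 1.16 (SE), so it says little about Nmnat3 in either direction.

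The tryptophan route begins with Tdo2, the liver enzyme that opens the tryptophan ring. On the probe set that stands for the gene, Tdo2 was at 15.44, 15.57 and 15.45 in non-Tg 1, 2 and 3, and at 15.57, 15.60 and 15.52 in Tg 5, 6 and 7. The groups overlapped, and the difference was 0.07 ± 0.07 (SE; limma adjusted p = 0.870), or 0.94-fold to 1.17-fold. This probe set was among the brightest on the arrays, above 99.8% of probe sets.

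Both other Tdo2 probe sets, which were dimmer, placed all 3 Tg mice above all 3 non-Tg mice. The second was at 13.87, 14.13 and 13.91 in non-Tg 1, 2 and 3, and at 14.23, 14.21 and 14.38 in Tg 5, 6 and 7. It differed by 0.30 ± 0.10 (SE), or 1.24-fold with an interval of 1.06 to 1.44. The dimmest was at 13.09, 13.49 and 13.31 in non-Tg 1, 2 and 3, and at 13.49, 13.56 and 13.66 in Tg 5, 6 and 7, a difference of 0.27 ± 0.11 (SE). In the limma fit over all kept probe sets their adjusted p was 0.828 and 0.848, so neither passed. Within the lower and higher bioC sets the second differed by 0.35 and 0.36, and the dimmest by 0.44 and 0.26. Tdo2 thus differed by 1.05-fold or by 1.21-fold to 1.24-fold depending on the probe set read, and what makes the probe sets differ was not tested.

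KMO and HAAO each carry out an oxidation on the way from kynurenine to quinolinic acid. Kmo was at 12.95, 12.97 and 13.20 in non-Tg 1, 2 and 3, and at 12.85, 13.05 and 13.22 in Tg 5, 6 and 7. The ranges of both groups nearly coincided, with means of 13.04 in each, and the interval was 0.83-fold to 1.20-fold. Haao was at 13.88, 13.64 and 13.87 in non-Tg 1, 2 and 3, and at 14.07, 13.90 and 13.73 in Tg 5, 6 and 7. Tg 5 and Tg 6 lay above the non-Tg mice and Tg 7 among them, a difference of 0.10 ± 0.11 (SE; limma adjusted p = 0.873) with an interval of 0.90-fold to 1.27-fold. ACMSD, which diverts the Haao product away from NAD, was the member without a value.

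QPRT converts quinolinic acid to nicotinic acid mononucleotide. Qprt was at 12.34, 12.55 and 12.32 in non-Tg 1, 2 and 3, and at 12.57, 12.30 and 12.42 in Tg 5, 6 and 7. The groups overlapped throughout, with a difference of 0.03 ± 0.11 (SE; limma adjusted p = 0.974) and an interval of 0.86-fold to 1.21-fold. Its second probe set gave 0.05 ± 0.14 (SE). NADSYN1 amidates the last intermediate to NAD, a step shared by the tryptophan and nicotinic acid routes. Nadsyn1 was at 9.69, 9.55 and 9.72 in non-Tg 1, 2 and 3, and at 9.83, 9.65 and 9.94 in Tg 5, 6 and 7. Tg 5 and Tg 7 lay above the non-Tg mice and Tg 6 among them, a difference of 0.15 ± 0.15 (SE; limma adjusted p = 0.867), or 0.89-fold to 1.39-fold.

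On the probe sets that stand for the genes, the 5 differences of the tryptophan route ran from 0.00 to 0.15, with a median of 0.07. None of the 5 passed. With the mean of its kept probe sets Tdo2 differed by 0.22 ± 0.09 (SE; limma adjusted p = 0.865), its largest difference under the 19 alternatives. The upper ends of the 95% intervals were 1.17-fold for Tdo2 (on the probe set that stands for it), 1.20-fold for Kmo, 1.21-fold for Qprt, 1.27-fold for Haao and 1.39-fold for Nadsyn1. Both other Tdo2 probe sets had an upper end of 1.44-fold. The salvage genes had wider intervals, reaching down to 0.63-fold for Nmnat3 and up to 1.55-fold for Nampt. A gene that did not pass is not shown to be unchanged.

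The genes whose pattern over the 6 mice lay nearest to Nnmt were found by the root mean square difference of log2 signals, each gene centred on its own mean. The 5 nearest with an assigned name were Zbtb12 (0.10), Dct, the melanin enzyme dopachrome tautomerase (0.12), Selenbp1, a methanethiol oxidase (0.17), Pdzd2 (0.19) and Rgcc (0.22), with the distance in log2 units in brackets. All 5 had their 3 Tg mice above their 3 non-Tg mice, which the measure favours in genes close to Nnmt. Selenbp1 was at 14.78, 14.77 and 14.38 in non-Tg 1, 2 and 3, and at 15.36, 15.58 and 15.36 in Tg 5, 6 and 7. As with Nnmt, Tg 6 was the highest and non-Tg 3 the lowest mouse. Dct was at 8.34, 8.40 and 8.17 in non-Tg 1, 2 and 3 and at 9.06, 9.48 and 9.19 in Tg 5, 6 and 7, with the same mice at the extremes. Zbtb12, Pdzd2 and Rgcc were dim, with means over the 6 mice of 6.38, 6.62 and 5.85. None of the 5 passed the limma threshold.

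**Figure D4:**
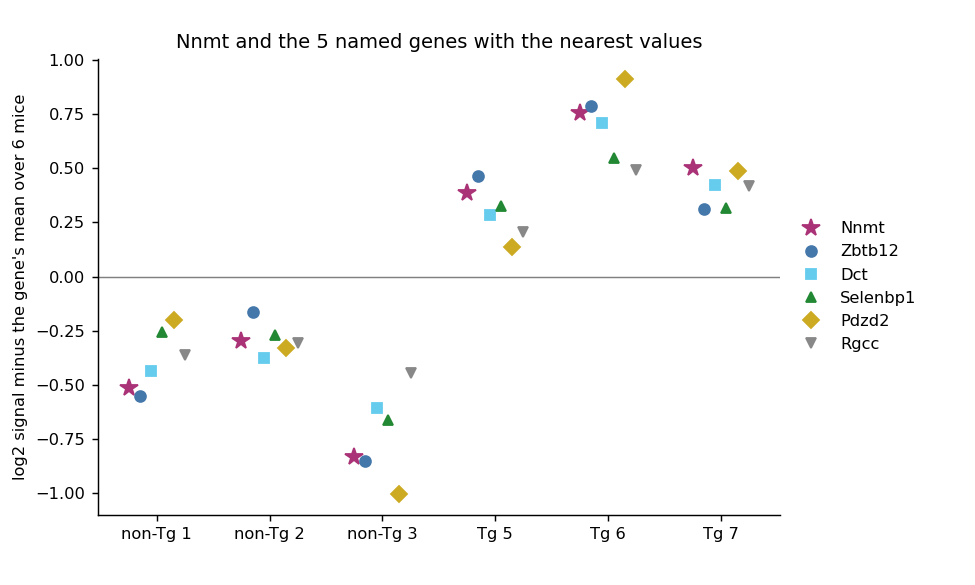
Log2 signal minus the mean of each gene over the 6 mice (y axis) for Nnmt and the 5 named genes nearest to it, in each mouse (x axis), with points shifted sideways for legibility. Nnmt lies lowest in non-Tg 3 and highest in Tg 6, and its distances to the 5 genes run from 0.10 to 0.22.

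Other genes of NAD metabolism and of methyl transfer were read from 6 lists, of which 49 genes passed the filter. None passed the limma threshold over all genes, and 7 of 49 (14.3%) had an unadjusted limma p under 0.05, 3 higher and 4 lower, against 6.05% of all genes. The groups did not overlap for 9 of 49 (18.4%), against 11.7% of all genes. The median difference was -0.03.

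In the rest of the kynurenine branch, 5 of 7 genes were higher, with a median of 0.16. Kyat1, a kynurenine aminotransferase that leads away from NAD to kynurenic acid, differed by 0.33 ± 0.15 (SE; limma adjusted p = 0.807). It was at 11.44, 11.15 and 10.94 in non-Tg 1, 2 and 3, and at 11.63, 11.49 and 11.39 in Tg 5, 6 and 7. Tg 7 lay just below non-Tg 1, so the groups overlapped. The other 3 Kyat1 probe sets gave 0.48, 0.51 and 0.24, also higher in Tg livers. The groups did not overlap on the first of these (limma adjusted p = 0.811) and overlapped on the others. On the probe set that stands for Kyat1 the difference was 0.12 within the lower bioC set and 0.35 within the higher set.

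Genes of entry from nicotinic acid and nicotinamide riboside, with NAD kinases and transport, split into 4 higher and 4 lower, with a median of -0.09, or 2 higher and 6 lower with median centring. Slc25a51, the mitochondrial NAD carrier, was at 11.32, 11.19 and 11.73 in non-Tg 1, 2 and 3, and at 11.52, 12.78 and 12.32 in Tg 5, 6 and 7. The groups overlapped through Tg 5, and the difference was 0.79 ± 0.28 (SE; limma adjusted p = 0.787), with 0.40 and 0.35 on its other probe sets. Nt5e, an ectonucleotidase that can dephosphorylate extracellular nicotinamide mononucleotide, was at 8.34, 8.60 and 8.26 in non-Tg 1, 2 and 3, and at 7.34, 7.74 and 7.14 in Tg 5, 6 and 7. All 3 Tg mice lay below all 3 non-Tg mice, a difference of -0.99 ± 0.24 (SE; limma adjusted p = 0.695). Its other probe sets lay below the filter and gave 1.20 and -1.25.

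Of 19 NAD-consuming enzymes listed, 14 passed the filter, with 5 higher and 9 lower and a median of -0.12. With median centring 3 were higher and 11 lower. Cd38 and Parp10 had no probe set with a single symbol and were not measured, and Sirt6, Bst1 and Sarm1 lay below the filter. Sirt3, the main deacetylase of mitochondria, was at 12.16, 12.24 and 12.48 in non-Tg 1, 2 and 3, and at 11.91, 11.87 and 12.01 in Tg 5, 6 and 7. The groups did not overlap, and the difference was -0.37 ± 0.11 (SE; limma adjusted p = 0.735). Sirt1, the nuclear deacetylase, differed by -0.36 ± 0.22 (SE) with overlapping groups, and Parp1, the most active polymerase in DNA repair, by 0.05 ± 0.13 (SE).

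Methylnicotinamide is oxidised to pyridones by aldehyde oxidases, and the 3 genes of its clearance and transport that passed the filter were lower, with a median of -0.18. Aox4 and Slc22a2 lay below the filter and gave -0.09 and 0.65 with overlapping groups. Aox3, a main aldehyde oxidase of mouse liver, was at 14.32, 14.60 and 14.35 in non-Tg 1, 2 and 3, and at 14.12, 13.70 and 14.08 in Tg 5, 6 and 7. Every Tg mouse lay below every non-Tg mouse, a difference of -0.46 ± 0.13 (SE; limma adjusted p = 0.735). Within the bioC sets Aox3 differed by -0.41 and -0.40. Aox1 differed by -0.18 ± 0.12 (SE) with overlapping groups.

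Other enzymes that spend S-adenosylmethionine on small molecules split into 7 higher and 5 lower of 12, with a median of 0.03, or 5 higher and 7 lower with median centring. Inmt, which methylates indole amines, was at 15.46, 15.68 and 15.67 in non-Tg 1, 2 and 3, and at 15.32, 15.14 and 15.03 in Tg 5, 6 and 7. The groups did not overlap, and Inmt lay lower in Tg livers by a difference of -0.44 ± 0.10 (SE; limma adjusted p = 0.475). Within the lower and higher bioC sets it differed by -0.23 and -0.65. Gamt, the last enzyme of creatine synthesis, differed by 0.25 ± 0.11 (SE; limma adjusted p = 0.807) without overlap. Gnmt and Pemt, which take up much of the methyl flux in liver, differed by -0.05 ± 0.07 and -0.03 ± 0.13 (SE).

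For the supply and recycling of the methyl donor, 5 measured genes lay between -0.10 and 0.09. Ahcy, which clears S-adenosylhomocysteine, differed by 0.09 ± 0.06 (SE), and Adk, which removes the adenosine formed with it, by -0.10 ± 0.07 (SE). Both had groups without overlap at these small differences, with limma adjusted p of 0.841 and 0.833. Mat1a, the liver enzyme that makes S-adenosylmethionine, differed by -0.03 ± 0.10 (SE).

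**Figure D5:**
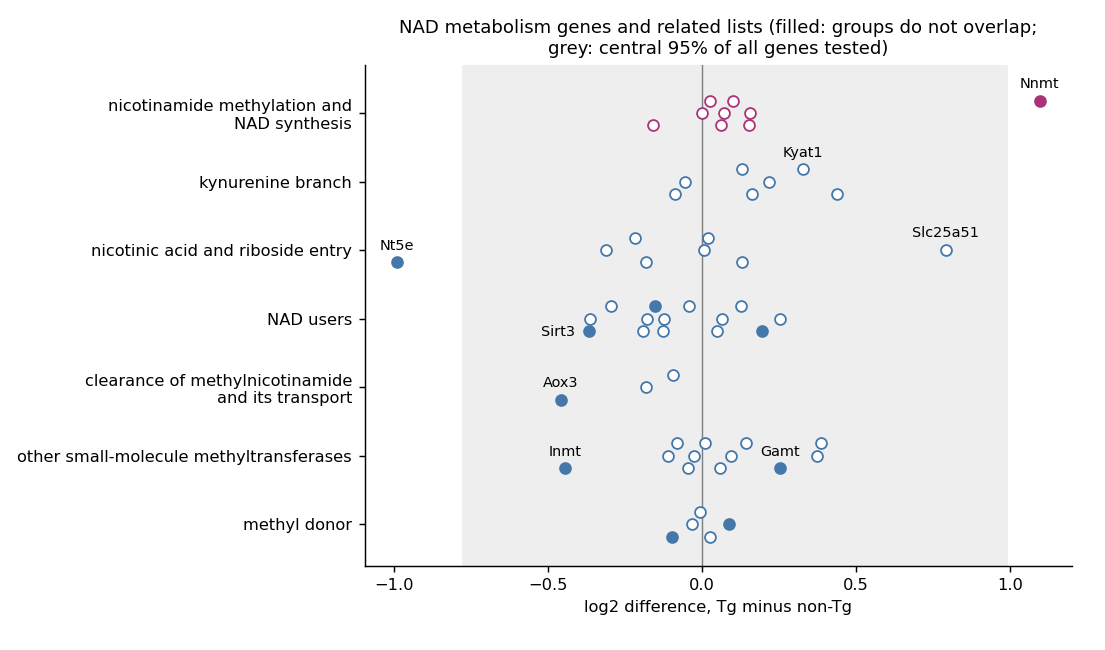
Log2 difference, Tg minus non-Tg (x axis), of the 9 measured members and of the genes of 6 related lists that passed the filter (y axis), 1 point per gene, with names at an unadjusted limma p under 0.05. Filled points are genes whose groups do not overlap, and the grey band holds the central 95% of all genes tested, from -0.78 to 0.99; Nnmt at 1.10 and Nt5e at -0.99 lie outside it.

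Markers of other cell types were read beside Nnmt. In whole liver, a different number of cells of a type and a different amount of RNA per cell cannot be told apart. Of 8 hepatocyte markers 3 were higher and 5 lower, with a median of -0.01, and with quantile normalization 4 were higher and 3 lower. With median centring 1 was higher and 7 were lower, with a median of -0.09. Their summed signal ran from 471909 to 495184 in Tg and from 455399 to 491508 in non-Tg livers. Among them Tat, tyrosine aminotransferase, stood apart, at 13.74, 13.50 and 14.36 in non-Tg 1, 2 and 3 and at 14.51, 15.33 and 15.10 in Tg 5, 6 and 7, a difference of 1.12 ± 0.24 (SE; limma adjusted p = 0.468). Of 7 adipocyte markers 5 were on the array with a single symbol and 2 passed the filter, both lower. Adipoq, the adipocyte hormone adiponectin, averaged a log2 signal of 1.32 over Tg mice and 4.19 over non-Tg mice, and Lep 2.31 and 4.11, all under the filter of 5.63. Retn, the adipocyte hormone resistin, whose mean over the 6 mice was also below the filter, averaged 6.10 over Tg mice and 4.96 over non-Tg mice, in the opposite direction. The summed adipocyte signal, nearly all of it from Car3, which hepatocytes also express, ran from 52012 to 64052 in Tg and from 61869 to 72957 in non-Tg livers.

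Of the 7 macrophage markers 7 were higher (6 with median centring), each with overlapping groups, and their sums ran from 16318 to 41787 in Tg and from 20500 to 23694 in non-Tg livers. Tg 6, also the highest in Nnmt, was the highest of the 6 mice for all 7 markers, and Tg 7 lay below every non-Tg mouse for 6 of them. Their median difference was 0.24, with 0.53 within the lower bioC set, -0.44 within the higher set and 0.05 with the sets as a block. Without Tg 6, an alternative chosen after seeing the data, 1 was higher and 6 were lower, with a median of -0.22. Of 6 stellate cell markers 5 passed the filter, 4 of them lower, and the sums did not overlap, at 4179 to 5081 in Tg and 5401 to 8390 in non-Tg livers. Of 7 T and NK cell markers 4 passed, 3 of them higher, with sums from 445 to 807 and from 249 to 453. Neutrophil, endothelial and kidney tubule markers had overlapping sums. Of 5 pancreas markers 2 passed the filter, both higher, and their sums, nearly all from Cela1 (difference 0.16), overlapped. Prss2, a pancreatic trypsinogen, was at 5.81, 3.63 and 5.96 in non-Tg 1, 2 and 3 and at 7.20, 7.71 and 7.06 in Tg 5, 6 and 7. Its groups did not overlap, with a difference of 2.19 ± 0.67 (SE; limma adjusted p = 0.735), while Cpa1, a pancreatic carboxypeptidase, lay below the filter, averaging 2.60 over Tg mice and 2.56 over non-Tg mice. The parts of hepatocytes, adipocytes, macrophages, stellate cells, lymphocytes, acinar cells and the other cell types in the Nnmt difference were not tested.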

How the data were processed

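Liver RNA from 6 mice was labelled from 5 µg of total RNA and measured on 6 arrays, per the labels' protocols. The authors deposited a log2 signal for 45101 probe sets on each array. GCOS is named in the submitters' processing notes, without a version, algorithm or scaling target. The mean antilogged signal with 2% trimmed at each end was 500.0 on every array, and no detection calls were used.

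After 64 control probe sets were set aside, the platform annotation gave 1 symbol for 34945 of 45037 probe sets, several for 932 and none for 9160. Probe sets with a mean above the 40th percentile (log2 5.63; 27022 in all) were kept, and the highest-mean probe set with 1 symbol stood for each of 12705 genes. Groups were compared, 2-sided, with limma 3.58.1 (R 4.3.3; lmFit, eBayes with an intensity trend), adjusted by Benjamini and Hochberg over all genes at 0.05. SEs and 95% intervals are the moderated ones. Other probe sets were read from fits over all kept probe sets or, below the filter, over all with 1 symbol. Single values were also tested by exact permutation over 20 assignments of mice. The procedure was tested on simulated data. Figures used matplotlib 3.10.9 (Python 3.11.15).

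Members, lists and bioC sets were chosen with earlier results of these data known. Named genes are all members, list members with an unadjusted p under 0.05 (at most 4, otherwise the 2 of smallest p), and the 5 named genes nearest to Nnmt; Sirt1, Parp1, Aox1, Aox4, Slc22a2, Gnmt, Pemt, Mat1a and the markers named were added after their values were seen. The labels describe the mice as individual samples. The number of arrays limits the precision.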

Additional observations from a re-analysis of the deposited data

How the results depend on the processing

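Nnmt kept its direction under all 19 alternatives, and passed under 2: 64 added before the log (1.08, limma adjusted p = 0.0476) and a filter at the 20th percentile (1.10, 0.0390); each of these called 1 member, where the others called 0. Leaving out each mouse gave 0.95 to 1.22 for Nnmt, 0 members called in every case, 2 to 3 genes called higher and 0 to 1 called lower. Genes called higher in Tg livers numbered 4 with 64 added and with the 20th percentile filter, against 2. Genes called lower numbered 1 with 16 added, under robust moderation and with the bioC block, and 2 with 64 added, the 20th percentile filter and median centring, against 0.

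Small differences of uncalled members changed sign. Median centring gave -0.012 for Nmnat1, -0.0027 for Tdo2, -0.074 for Kmo and -0.047 for Qprt; array weights gave -0.0074 for Nmnat1, -0.0069 for Kmo and -0.0052 for Qprt; the mean of kept probe sets gave -0.0067 for Nmnat1. Without single mice the ranges were -0.016 to 0.39 for Nampt, -0.13 to 0.18 for Nmnat1, -0.25 to 0.018 for Nmnat3, -0.088 to 0.10 for Kmo and -0.045 to 0.10 for Qprt. Haao and Nadsyn1 kept their sign throughout. The cause was not tested. No paired analysis was possible because the groups share no replicate numbers. Dim probe sets, without detection calls, limit what can be said of the second Nmnat3 probe set.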
